A study of Mus musculus with 15 samples.

Results

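Small heat shock proteins and their partner chaperones were followed across 5 conditions of mouse small intestinal organoids. The 9 genes were the rows of the gene count tables named Hspb8, Hspb1, Hspb6, Cryab, Bag3, Hspa1a, Hspa1b, Hsph1 and Dnajb1, out of 78298 genes listed. The group was chosen by the fitted log2 fold change of Hspb8, the largest rise of SOX9-Halo spheroids over the Halo-NLS line, so for the 9 genes every comparison that includes either of those conditions is given as a description without a test. All 9 genes passed the filter on low counts, but Hspb8, Cryab and Hspb1 passed it only through spheroid libraries, Hspb1 only through those of the SOX9-mEGFP line.

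Organoids of C57BL/6J origin were grown in Matrigel in IntestiCult medium, and each line had been transduced with lentivirus and selected with an antibiotic. The paper also used organoids from LGR5::DTR-GFP mice, bred with C57BL/6J. Its account of the RNA sequencing does not give the mouse background of each culture. Halo-NLS organoids expressed the HaloTag with a nuclear localisation signal. SOX9-mEGFP and SOX9-Halo lines expressed the transcription factor SOX9 fused to a green fluorescent protein or to the HaloTag, from the weak ubiquitous L30 promoter, and were collected first as budding organoids and, at later passages, as round spheroids. By a second transduction the authors also made SOX9-Halo and SOX9-mEGFP lines with a histone marker, H2B-mEGFP or H2B-mScarletI. The paper's text does not say which sequenced cultures carried one. Shape, passage, any such marker and any difference in mouse background cannot be told apart in a comparison of spheroids with budding organoids. Each condition had 3 libraries of polyadenylated RNA, each from 6 pooled wells collected 5 days after seeding.

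The 15 libraries held 28062722 to 40559766 reads on genes, and mitochondrial genes took 1.88% to 5.26% of them. Normalized counts, meaning counts divided by the library's effective size relative to the mean of all libraries, are used below. Sox9 itself had normalized counts of 305.5 to 769 in Halo-NLS and of 1336 to 23654 in the 12 SOX9 libraries. This checks the label of Halo-NLS against the SOX9 lines only. Sox9 overlapped between the tags and between budding organoids and spheroids of each line, so it does not check those labels. The lowest of the 12 SOX9 libraries was SOX9-Halo budding replicate 1, against 10538 and 6838 in replicates 2 and 3 of that condition. That library also had the highest mitochondrial share (5.26%) and the lowest Hspb6 and Bag3 of all libraries. The epithelial markers Epcam, Cdh1, Krt8, Krt18, Krt19 and Cldn7 summed to 163154 or more in every library. Within that list Epcam was at 14770 to 16219 in SOX9-Halo spheroids and at 30008 or more elsewhere. Cldn7 was at 10279 to 12062 there and at 20233 or more elsewhere. Krt18 went the other way, at 47032 or more in both spheroid conditions and at 27363 or less elsewhere. Cdh1, Krt8 and Krt19 were not called between spheroids and budding organoids by the rule given below. The small intestinal markers Cdx2, Vil1, Cdh17 and Lgals4 summed to 4331 to 7786 in SOX9-Halo spheroids and to 102435 to 224571 in the other 4 conditions, so the first condition carries little of the transcript set of the tissue named on its label, and the part of this in the values below was not tested. Cdx2 was also lower in SOX9-mEGFP spheroids, at 2066 to 3469 against 9116 to 10569 in the budding organoids of that line. Vil1, Cdh17 and Lgals4 overlapped between those 2 conditions. In bulk RNA, fewer cells of a type and less RNA per cell cannot be told apart.

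Small heat shock proteins bind unfolded clients without using ATP and hold them in a state from which they can be refolded or removed. HSP70 proteins (Hspa1a, Hspa1b, and the constitutive Hspa8) refold clients with the help of J-domain proteins such as Dnajb1 and of nucleotide exchange factors such as HSP110 (Hsph1) and BAG3. BAG3 also binds HSPB8, and this complex hands clients to autophagy. Many of these genes are induced together by the heat shock factor HSF1, while Cryab, Hspb2 and Hspb8 are best known from muscle and lens.

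Hspb8, Cryab, Hspb1 and Hspa1b were higher in SOX9-mEGFP spheroids than in SOX9-mEGFP budding organoids, by 3.91 times for Hspa1b to 335 times for Cryab as ratios of summed counts over summed effective library sizes. Bag3, Hspb6, Hspa1a, Hsph1 and Dnajb1 did not pass the test there. This comparison shares no condition with the one behind the choice of genes, although the fit estimated the spread over all 15 libraries. A gene was called where edgeR's quasi-likelihood test gave a Benjamini-Hochberg adjusted p of at most 0.01, a change of at least 2-fold and at least 10 normalized counts on average. By that rule 4 of the 9 genes were called higher, against 8.55% of the 17560 genes tested, and 0 were called lower, against 7.88%. Hspb8, Cryab and Hspb1 were in the test only through the spheroid libraries in which they were high, so nothing is read from the count of 4 against that share. At an unadjusted p under 0.05 there were also 4 higher and 0 lower, and DESeq2 gave the same counts. In SOX9-Halo budding organoids against those of the SOX9-mEGFP line none of the 9 genes passed the test: 0 were called higher, against 0.29% of genes tested, and 0 lower, against 0.165%, with 0 at an unadjusted p under 0.05 in either direction, 0 with DESeq2, and a lowest adjusted p of 0.78 (edgeR). Hspb8, Hspb1 and Cryab had only 5 to 14 reads in each of these conditions, so a difference in them was hardly detectable at this depth and this result rests on the other 6 genes.

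**Figure D1:**
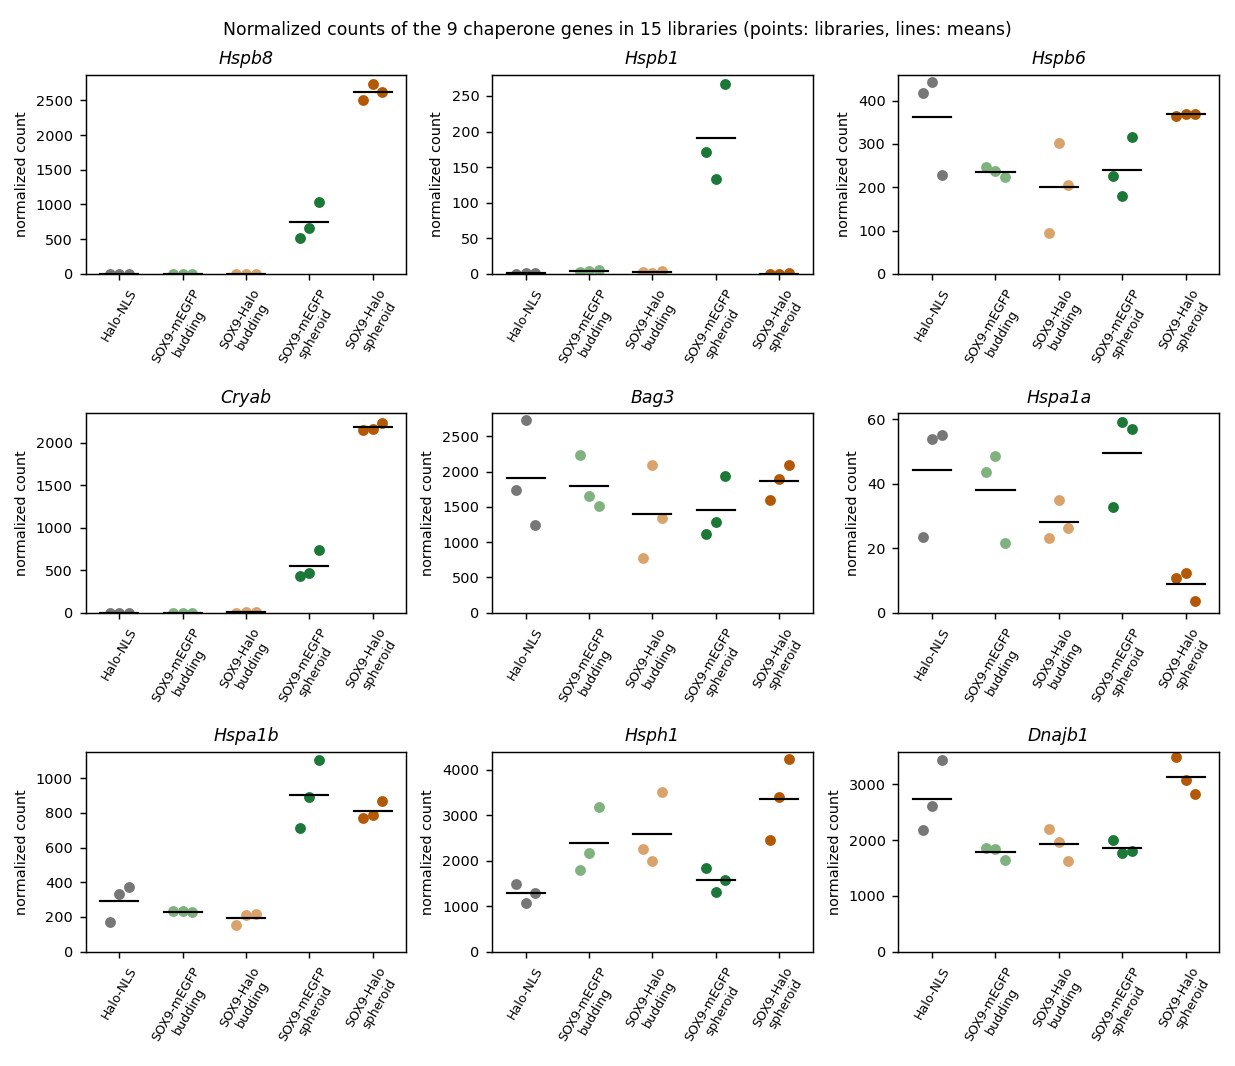
Normalized counts (vertical axes, linear, starting at 0, a separate scale for each gene) of the 9 genes in the 15 libraries, with points for libraries and lines for the mean of 3. Hspb8 and Cryab stand near 0 in the 3 conditions without spheroids and rise in both spheroid conditions, Hspb1 stands up in SOX9-mEGFP spheroids alone, and Bag3 overlaps between all neighbouring conditions.

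Hspb8, the small heat shock protein that pairs with BAG3, lies on chromosome 5 (GRCm39, 116546409 to 116561084, minus strand). It had 0 counts in each of the 3 Halo-NLS libraries. It had 3.6, 4.2 and 3.1 normalized counts in SOX9-mEGFP budding organoids and 1.6, 5.8 and 2.0 in SOX9-Halo budding organoids. They reached 516.5, 665.9 and 1042 in SOX9-mEGFP spheroids and 2508, 2735 and 2625 in SOX9-Halo spheroids. The order was therefore SOX9-Halo spheroids, SOX9-mEGFP spheroids, the 2 budding SOX9 lines and Halo-NLS. Only the budding lines overlapped among neighbours in it, and their signal rested on 11 and 10 reads in all. Within the SOX9-mEGFP line the log2 fold change was 7.64 ± 0.43 (SE, n = 3 and 3 libraries, edgeR adjusted p = 9.2e-08). As a ratio of sums this was 206, with an exact 95% counting interval of 115 to 413 that covers counting error only. In the SOX9-Halo line the ratio of spheroids to budding organoids was 871 (interval 473 to 1816). Against Halo-NLS, the comparison behind the choice of genes, SOX9-Halo spheroids were at least 711-fold higher when the absent counts are set to a floor of 3 per library.

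Cryab, αB-crystallin, the most studied small heat shock protein of lens and muscle, followed the same order. It lies on chromosome 9 (GRCm39, 50651859 to 50668567, plus strand). Its normalized counts were 0, 0 and 2.5 in Halo-NLS, 1.2, 0 and 3.1 in SOX9-mEGFP budding organoids and 2.4, 3.9 and 6.8 in SOX9-Halo budding organoids. They were 435.7, 470.6 and 736.2 in SOX9-mEGFP spheroids and 2149, 2168 and 2235 in SOX9-Halo spheroids. The spheroid conditions overlapped with no other condition, while the 3 low conditions overlapped as neighbours. The log2 fold change within the SOX9-mEGFP line was 8.31 ± 0.58 (SE, edgeR adjusted p = 1.5e-07), a ratio of 335 (counting interval 143 to 1034) over a total of 5 reads in the budding organoids. It was called under each alternative, but its size depended on single libraries, with a log2 fold change of 9.58 without SOX9-mEGFP budding replicate 3, which held 4 of the 5 reads, and of 7.78 without SOX9-mEGFP budding replicate 2. In the SOX9-Halo line the ratio was 517 (interval 308 to 946).

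Hspb2 is the divergent neighbour of Cryab and lies on the opposite strand within its annotated span (GRCm39, chromosome 9, 50662378 to 50663858). It was too low to be tested. It had 0 counts in all 9 libraries that were not spheroids. It reached 2.7, 0 and 1.9 normalized counts in SOX9-mEGFP spheroids and 26.1, 12.3 and 5.4 in SOX9-Halo spheroids. Reads were counted without strand and were dropped where 2 genes overlap, and 757 bases, or 17.2%, of the merged Cryab exons are shared with Hspb2 and 871 bases, or 19.8%, with the protein-coding gene 2310030G06Rik, besides shorter overlaps with the lncRNAs Gm67659 and Gm67675. Reads on these bases may be missing from the counts of Cryab and Hspb2. Of the other small heat shock proteins listed, Hspb3 and Hspb7 had no count in any library, Cryaa averaged at most 0.26 normalized counts in a condition, and Hspb9 averaged 2.04 to 5.97.

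Cryab, Hspb2 and Hspb8 are muscle genes by background, so the muscle markers Des, Myh11, Actg2, Cnn1, Acta1, Myh3, Ckm and Tnnt2 were read beside them. The 8 markers summed to 105 to 116 in SOX9-Halo spheroids, to 145 to 223 in SOX9-mEGFP spheroids and to 320 to 1110 in the other conditions. Acta1 alone was at 271.7 to 1060 in those other conditions, at 68.1 to 79.0 in SOX9-mEGFP and at 1.9 to 6.3 in SOX9-Halo spheroids. The fall of the sum is therefore mostly that of Acta1. Tnnt2 went the other way, at 44.1 to 134.9 in the 2 spheroid conditions and at or below 41.3 elsewhere. Actg2 was at 0 in all 6 spheroid libraries and Myh11 did not exceed 3.6. In SOX9-mEGFP spheroids against budding organoids 1 marker was called higher (Tnnt2) and 1 lower (Acta1). In SOX9-Halo spheroids Des was called higher and Acta1 lower, both against budding organoids and against Halo-NLS. Tnnt2 was called higher there against Halo-NLS only. Des, the muscle intermediate filament, was at 27.2 to 55.8 in SOX9-Halo spheroids and at or below 8.8 elsewhere, and the part of these markers in the levels of Cryab, Hspb2 and Hspb8 was not tested. The 8 mesenchymal markers summed to at most 49.7 and the 4 endothelial markers to at most 6.0 in any spheroid library. Of the immune markers, Csf1r was at 68.3 to 179 in SOX9-mEGFP spheroids, where Hspb1 was high, and at 0.78 to 4.15 in the budding organoids of that line, and was called higher. Itgam was at 6.67 to 26.6 in these spheroids and at 79.96 to 121 in the budding organoids, and was called lower. The leukocyte marker Ptprc was at or below 5.0 in all 6 spheroid libraries, and the part of these markers in the level of Hspb1 was not tested.

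Hspb1, the mouse HSP25, was high in 1 condition alone. It lies on chromosome 5 (GRCm39, 135916760 to 135918417, plus strand). Its normalized counts were 171.3, 133.2 and 266.7 in SOX9-mEGFP spheroids. They were 0, 0 and 0.9 in SOX9-Halo spheroids, which rests on 1 read in 3 libraries. Halo-NLS had 0, 1.1 and 1.3, SOX9-mEGFP budding organoids 2.4, 4.2 and 5.5, and SOX9-Halo budding organoids 2.4, 1.9 and 3.9. The SOX9-mEGFP spheroids overlapped with no other condition. Their log2 fold change against budding organoids of the same line was 5.47 ± 0.46 (SE, edgeR adjusted p = 7.2e-07), a ratio of 45.1 (counting interval 26.2 to 85.1). The 2 spheroid conditions, which share the rise of Hspb8 and Cryab, thus stood apart in Hspb1 by a ratio of 575 (interval 103 to 22742), given without a test.

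Most of the Hspb1 transcript has a copy elsewhere in the genome. A processed pseudogene, Hsp25-ps1, lies at chromosome 13 (GRCm39, 45231846 to 45232660) and matches the Hspb1 transcript at 811 of 815 aligned bases. Of the 916 bases of the transcript, 701 (76.5%) lie in stretches of 100 or more bases that recur without a mismatch in the genome. The authors kept only reads that align to 1 place, so reads from these stretches may be lost unless the mate resolves them, and the level of Hspb1 is uncertain. How many reads were lost was not measured. Hsp25-ps1 itself had 0 to 5.0 normalized counts. Hspb8, Cryab, Bag3, Hsph1 and Dnajb1 had no such stretch.

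Hspb6, HSP20, best known from muscle, was the small heat shock protein present in all conditions. It had 416.9, 442.9 and 228.8 normalized counts in Halo-NLS, 246.6, 236.8 and 222.7 in SOX9-mEGFP budding organoids and 93.9, 301.6 and 205.9 in SOX9-Halo budding organoids. The values were 226.3, 179.2 and 315.2 in SOX9-mEGFP spheroids and 364.8, 369.9 and 370.0 in SOX9-Halo spheroids. All neighbours in the order of levels overlapped, but SOX9-Halo spheroids lay above the budding organoids of their line, by 0.88 ± 0.36 (SE) on the log2 scale without a test. The log2 fold change within the SOX9-mEGFP line was 0.03 ± 0.36 (SE, edgeR adjusted p = 0.97).

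Per length of the canonical transcript, the makeup of the small heat shock proteins shifted between conditions. The summed level of Hspb1, Hspb2, Hspb6, Hspb8 and Cryab, in CPM (counts scaled to the effective library size) per kilobase of transcript, was 3.59 ± 1.11 (SD, n = 3) in Halo-NLS, 2.51 ± 0.05 in SOX9-mEGFP and 2.17 ± 1.06 in SOX9-Halo budding organoids. It was 28.7 ± 9.35 in SOX9-mEGFP spheroids and 79.4 ± 1.71 in SOX9-Halo spheroids. Hspb6 made up 86.6% to 100% of this sum in the 9 libraries that were not spheroids. In SOX9-mEGFP spheroids the mean shares were 36.1% for Hspb8, 33.8% for Cryab, 21.5% for Hspb1 and 8.31% for Hspb6. In SOX9-Halo spheroids they were 46.4% for Hspb8, 48.5% for Cryab and 4.54% for Hspb6, and that of Hspb1 was 0.012%. Hspb8 and Cryab were nearly equal per length in both spheroid conditions, with a ratio of 0.95 to 1.13 in SOX9-mEGFP and of 0.93 to 1.01 in SOX9-Halo spheroids. The share of Hspb1 is uncertain for the reason given above. Levels were divided by the full canonical length, although reads where 2 genes overlap were dropped. Such overlaps cover part of the Cryab exons, as given above, and 9.95% of the merged Hspb8 exons (the lncRNA Gm42009). Of the merged Hspb6 exons, 11.8% overlap the protein-coding gene Lin37, 5.05% Proser3 and 1.96% Mir9769. The shares and the ratio of Hspb8 to Cryab are therefore approximate.

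**Figure D2:**
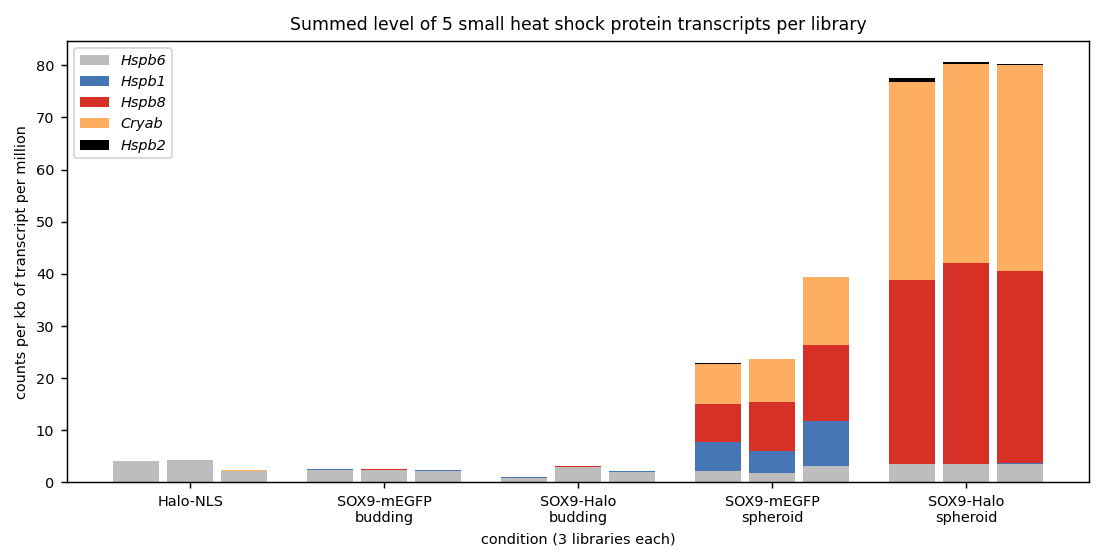
Stacked bars give the level of 5 small heat shock protein transcripts in CPM per kilobase of canonical transcript (vertical axis, from 0) in each of the 15 libraries, ordered by condition. The sum is 1.06 to 4.37 in the 9 libraries that are not spheroids, where Hspb6 makes up most of it, and 22.8 to 80.7 in the 6 spheroid libraries, where Hspb8 and Cryab do. Hspb1 shows in SOX9-mEGFP spheroids alone, and its level is uncertain because most of its transcript is copied in a pseudogene.

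Bag3, the co-chaperone that pairs with HSPB8, overlapped between conditions. Bag3 had 1736, 2725 and 1249 normalized counts in Halo-NLS, 2234, 1659 and 1513 in SOX9-mEGFP budding organoids and 769.3, 2094 and 1342 in SOX9-Halo budding organoids. The values were 1123, 1290 and 1938 in SOX9-mEGFP spheroids and 1592, 1900 and 2090 in SOX9-Halo spheroids. All neighbours in the order of levels overlapped. The log2 fold change within the SOX9-mEGFP line was -0.31 ± 0.35 (SE, edgeR adjusted p = 0.59). Per length, Hspb8 stood at 0.0018 to 0.0034 of Bag3 in the budding SOX9 lines, at 0.57 to 0.66 in SOX9-mEGFP spheroids and at 1.55 to 1.95 in SOX9-Halo spheroids. These ratios are approximate, because 18.6% of the merged Bag3 exons overlap the lncRNA 4921520J07Rik, where reads were dropped.

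Among 10 listed partners of BAG3 in autophagy, 8 could be tested, and in the SOX9-mEGFP line 2 were called higher in spheroids and 1 lower, against 8.55% and 7.88% of all genes tested. Flna, the actin crosslinker filamin A, a client of the BAG3 complex, went from a mean of 1335 to 4999 normalized counts (log2 fold change 1.90 ± 0.41 (SE), edgeR adjusted p = 0.0025). Gabarapl1, an autophagosome membrane protein, rose by 1.44 ± 0.24 (SE) on the log2 scale (edgeR adjusted p = 0.00036). Synpo, synaptopodin, an actin-associated partner of BAG3, fell by 3.03 on the log2 scale (SE 0.48, edgeR adjusted p = 0.00019). In the SOX9-Halo line Flna was again called higher (log2 fold change 2.61 ± 0.42 (SE), edgeR adjusted p = 0.00013) and Synpo lower (-4.33 ± 0.51 (SE), edgeR adjusted p = 7.1e-06), while Gabarapl1 was not called (0.74 ± 0.24 (SE), edgeR adjusted p = 0.022). There the shares of all genes tested were 10.5% called higher and 14.7% called lower.

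Hspa1b and Hspa1a, the stress-inducible HSP70 genes, stand side by side on chromosome 17 with 9951 bases between them (GRCm39, Hspa1b at 35175412 to 35178214 and Hspa1a at 35188166 to 35191132, both on the minus strand, each a single exon). Hspa1b had normalized counts of 232.0, 231.6 and 225.8 in SOX9-mEGFP budding organoids and of 712.6, 889.2 and 1102 in SOX9-mEGFP spheroids. It had 172.5, 333.9 and 374.6 in Halo-NLS, 154.3, 212.1 and 215.6 in SOX9-Halo budding organoids and 769.9, 787.0 and 867.0 in SOX9-Halo spheroids. The 6 spheroid libraries lay above all others, and the 2 spheroid conditions overlapped. The budding lines did not overlap with each other, but the gene was not called between them (log2 fold change -0.24 ± 0.27 (SE)). Within the SOX9-mEGFP line the log2 fold change was 1.97 ± 0.28 (SE, edgeR adjusted p = 7.1e-05).

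Hspa1a was lower than its neighbour in each library and showed another pattern. Its normalized counts were 23.5, 53.9 and 55.3 in Halo-NLS, 43.7, 48.8 and 21.8 in SOX9-mEGFP budding organoids and 23.1, 35.0 and 26.3 in SOX9-Halo budding organoids. They were 32.8, 59.1 and 57.1 in SOX9-mEGFP spheroids and 10.7, 12.3 and 3.6 in SOX9-Halo spheroids. SOX9-Halo spheroids lay below every other library, and the other 4 conditions overlapped as neighbours. The log2 fold change within the SOX9-mEGFP line was 0.39 ± 0.43 (SE, edgeR adjusted p = 0.58), and that of SOX9-Halo spheroids against budding organoids was -1.67 ± 0.49 (SE, not tested). The 2 genes share most of their sequence, with 1945 of 2967 bases (65.6%) of Hspa1a and 1944 of 2803 (69.4%) of Hspa1b in stretches of 100 or more identical bases that recur elsewhere in the genome, in the other copy or in Hspa1l. Reads from these stretches may be lost unless the mate resolves them, and 564 bases (19%) of Hspa1a overlap the antisense lncRNA Gm20481. The levels of both are therefore uncertain, and the difference between them rests on the bases that tell them apart.

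Hspa8, the constitutive HSP70, had a mean of 69066 normalized counts in SOX9-mEGFP spheroids and of 73100 in the budding organoids of that line, and its log2 fold change was -0.08 ± 0.17 (SE, edgeR adjusted p = 0.79). Per length it stood at 260 to 591 times Hspa1b in the 9 libraries that were not spheroids and at 60.9 to 122 times in the 6 spheroid libraries.

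The promoters of the called genes were read from RefSeq for the heat shock element, the site of heat shock factors, which is made of alternating GAA and TTC units. The 2-unit forms GAANNTTC and TTCNNGAA were searched in the 250 bases before each annotated start; each reads the same on both strands. At least 1 form was present in 12.8% of 32851 promoters, GAANNTTC in 6.69% and TTCNNGAA in 7.17%, and a form of 3 alternating units in 0.466%. Of the 9 genes, 8 had an entry, all but Cryab. The sequences below are those of Hspb8, Hspb1 and Hspa1b, called higher in SOX9-mEGFP spheroids, and of Hspa1a, which was not. They are the 250 bases upstream of the start, 5′ to 3′ on the strand of the gene, in build GRCm38.p6, with the 2-unit forms in capitals.
Hspb8, chr5:116422865-116423114, minus strand: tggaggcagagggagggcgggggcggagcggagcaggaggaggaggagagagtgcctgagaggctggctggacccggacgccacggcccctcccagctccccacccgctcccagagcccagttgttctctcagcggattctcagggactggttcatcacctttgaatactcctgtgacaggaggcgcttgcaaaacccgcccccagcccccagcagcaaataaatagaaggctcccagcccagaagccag
Hspb1, chr5:135887669-135887918, plus strand: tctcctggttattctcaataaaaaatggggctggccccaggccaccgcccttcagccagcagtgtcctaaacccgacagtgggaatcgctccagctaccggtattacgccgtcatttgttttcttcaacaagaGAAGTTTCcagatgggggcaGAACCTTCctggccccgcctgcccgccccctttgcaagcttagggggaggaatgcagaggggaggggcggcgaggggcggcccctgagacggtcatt
Hspa1b, chr17:34959239-34959488, minus strand: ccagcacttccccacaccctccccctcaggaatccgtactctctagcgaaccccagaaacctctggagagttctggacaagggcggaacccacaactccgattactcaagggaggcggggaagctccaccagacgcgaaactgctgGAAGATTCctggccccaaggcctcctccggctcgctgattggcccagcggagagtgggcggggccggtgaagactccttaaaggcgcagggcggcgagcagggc
Hspa1a, chr17:34972157-34972406, minus strand: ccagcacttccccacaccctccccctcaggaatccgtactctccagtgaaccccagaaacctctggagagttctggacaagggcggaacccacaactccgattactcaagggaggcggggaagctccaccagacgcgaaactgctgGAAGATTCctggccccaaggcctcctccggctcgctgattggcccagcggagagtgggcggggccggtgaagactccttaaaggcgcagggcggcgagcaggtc
Hspb8 had neither form in this window. Hspb1 had 2 matches to GAANNTTC, whose first bases lie 117 and 97 bases before the start. Hspa1b and Hspa1a had 1 match each, 104 bases before the start, and their windows were identical at 247 of 250 positions. Hsph1 had 1 match to TTCNNGAA, the same site seen 33 and 54 bases before its annotated starts. Hspb6 had 1 match to GAANNTTC before 1 of its starts, and Bag3 and Dnajb1 had none. None of the 8 had the form of 3 units. A match is a description of these letters and says nothing of binding.

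Hsph1, the HSP110 exchange factor of HSP70, was not called within the SOX9-mEGFP line. Its normalized counts were 1783, 2171 and 3181 in SOX9-mEGFP budding organoids and 1837, 1321 and 1582 in SOX9-mEGFP spheroids, and the groups overlapped. The log2 fold change was -0.59 ± 0.28 (SE, edgeR adjusted p = 0.14). Its normalized counts were 1483, 1068 and 1293.5 in Halo-NLS, 2256, 1985 and 3497 in SOX9-Halo budding organoids and 2442, 3395 and 4222 in SOX9-Halo spheroids. SOX9-Halo spheroids lay above all 3 Halo-NLS libraries, by 1.39 ± 0.28 (SE) on the log2 scale without a test, and overlapped with the budding organoids of their own line.

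Dnajb1, the J-domain partner of HSP70 in the heat shock response, had normalized counts of 2175, 2620 and 3444 in Halo-NLS, 1851, 1836 and 1648 in SOX9-mEGFP budding organoids and 2196, 1972 and 1620.5 in SOX9-Halo budding organoids. It had 2008, 1776 and 1813 in SOX9-mEGFP spheroids and 3482, 3079 and 2822 in SOX9-Halo spheroids. The SOX9-Halo spheroids overlapped with Halo-NLS and lay above the other 9 libraries. The log2 fold change within the SOX9-mEGFP line was 0.07 ± 0.19 (SE, edgeR adjusted p = 0.84), and within the SOX9-Halo line it was 0.70 ± 0.19 (SE, not tested).

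**Figure D3:**
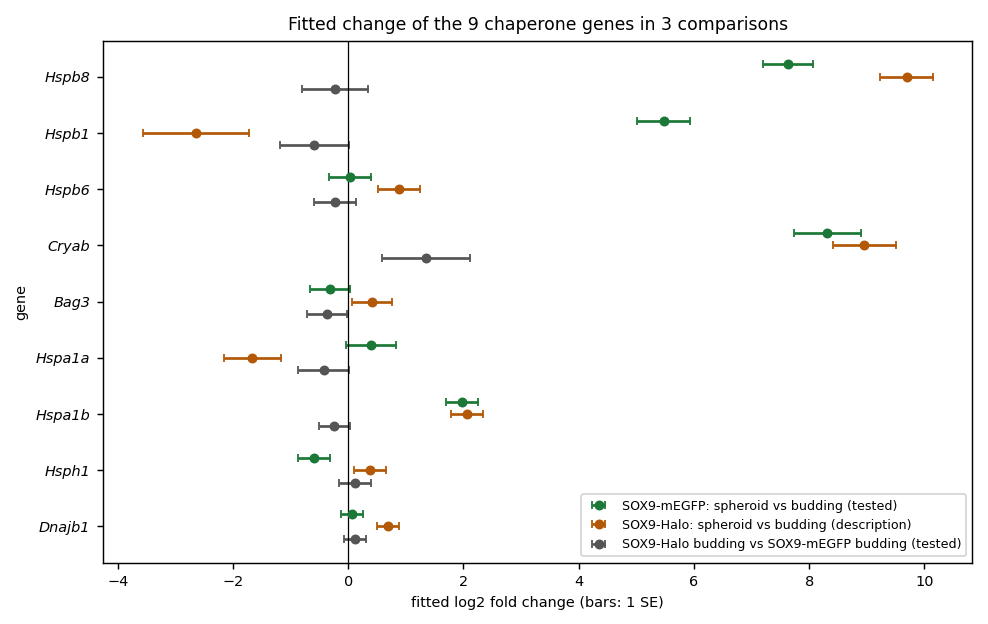
Fitted log2 fold changes with 1 SE (horizontal axis) of the 9 genes for spheroids against budding organoids in the SOX9-mEGFP line (green, tested) and in the SOX9-Halo line (orange, description only), and for the 2 budding lines against each other (grey, tested). Hspb8 (7.64 and 9.69), Cryab (8.31 and 8.96) and Hspa1b (1.97 and 2.06) lie to the right in both lines, Hspb1 lies at 5.47 in 1 line and at -2.65 in the other, and the grey points stay within 1.4 of 0.

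The heat shock factors and the wider chaperone set were read from lists of genes that are not among the 9. Hsf1, the main factor of the heat shock response, had a log2 fold change of -0.23 ± 0.22 (SE, edgeR adjusted p = 0.51) within the SOX9-mEGFP line. Of the 4 genes on the list of factors, Hsf1, Hsf2, Hsf4 and the binding protein Hsbp1, 0 were called there (0 at an unadjusted p under 0.05). These are RNA levels, and the activity of the factors was not measured. Of 85 other genes listed, 84 were found and 76 could be tested. They are called other chaperone genes here, although they include the list of heat shock factors. In SOX9-mEGFP spheroids against budding organoids 2 of the 76 were called higher and 0 lower, against 8.55% and 7.88% of all genes tested, with 9 higher and 6 lower at an unadjusted p under 0.05 and the same 2 counts from DESeq2. The count of 2 became 1 without SOX9-mEGFP budding replicate 1, without SOX9-mEGFP budding replicate 2 and without SOX9-mEGFP spheroid replicate 1. The median log2 fold change of the 76 was 0.07, against -0.04 for all genes tested. The shares of all genes given here hold for called genes only. Counts at an unadjusted p under 0.05 have no such share beside them, so no excess is read from them here or below.

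The 2 called genes were Fkbp5 and Bag2. Fkbp5, an HSP90 co-chaperone that is known as a target of the glucocorticoid receptor, had normalized counts of 245.4, 331.2 and 622.1 in SOX9-mEGFP budding organoids and of 7395, 8820 and 9661 in SOX9-mEGFP spheroids (log2 fold change 4.43 ± 0.45 (SE), edgeR adjusted p = 3.6e-06). The groups were far apart, and the SOX9-Halo line showed the same direction, with 3.34 ± 0.42 (SE, edgeR adjusted p = 1.4e-05). Bag2, a BAG-family regulator of HSP70, went from 394.8, 361.4 and 562.2 to 1151, 927.2 and 1053 (log2 fold change 1.25 ± 0.26 (SE), edgeR adjusted p = 0.0021).

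The lists of HSP70, J-domain, chaperonin and endoplasmic reticulum chaperones held 0 called genes in the SOX9-mEGFP line. The 10 HSP70 and HSP110 genes had log2 fold changes of -0.59 to 0.96 with a median of 0.46, and 2 higher and 1 lower at an unadjusted p under 0.05. The 14 J-domain genes tested lay between -0.63 and 0.71 (2 higher and 1 lower at that p), the 16 chaperonin and prefoldin genes between -0.67 and 0.55 (1 higher and 2 lower) and the 12 chaperones of the endoplasmic reticulum between 0.14 and 0.57 (2 higher and 0 lower). Hsp90aa1, the inducible HSP90, had a log2 fold change of -0.33 ± 0.64 (SE, edgeR adjusted p = 0.77) and Hsp90ab1, the constitutive HSP90, of 0.17 ± 0.17 (SE, edgeR adjusted p = 0.53).

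In the SOX9-Halo line, spheroids against budding organoids, 4 of the 76 genes were called higher, against 10.5% of genes tested, and 1 lower, against 14.7%. The higher ones were Fkbp5, Cct5 (a subunit of the TRiC chaperonin, log2 fold change 1.31 ± 0.17 (SE), edgeR adjusted p = 1.4e-05), Stip1 (which bridges HSP70 and HSP90, 1.18 ± 0.20 (SE), edgeR adjusted p = 0.00018) and Bag2 (1.09 ± 0.26 (SE), edgeR adjusted p = 0.0035), and the lower one was Dnajb5, a J-domain protein (-1.60 ± 0.26 (SE), edgeR adjusted p = 0.00016). Cct5, Stip1 and Dnajb5 were named after their values were seen. At an unadjusted p under 0.05 there were 20 higher and 3 lower among the 76, with no share of all genes at that limit beside them. The median log2 fold change of the 76 was 0.27, against -0.08 for all genes tested. Hsp90ab1 had an edgeR adjusted p of 0.0004 but a log2 fold change of 0.92 ± 0.17 (SE), under the 2-fold limit.

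**Figure D4:**
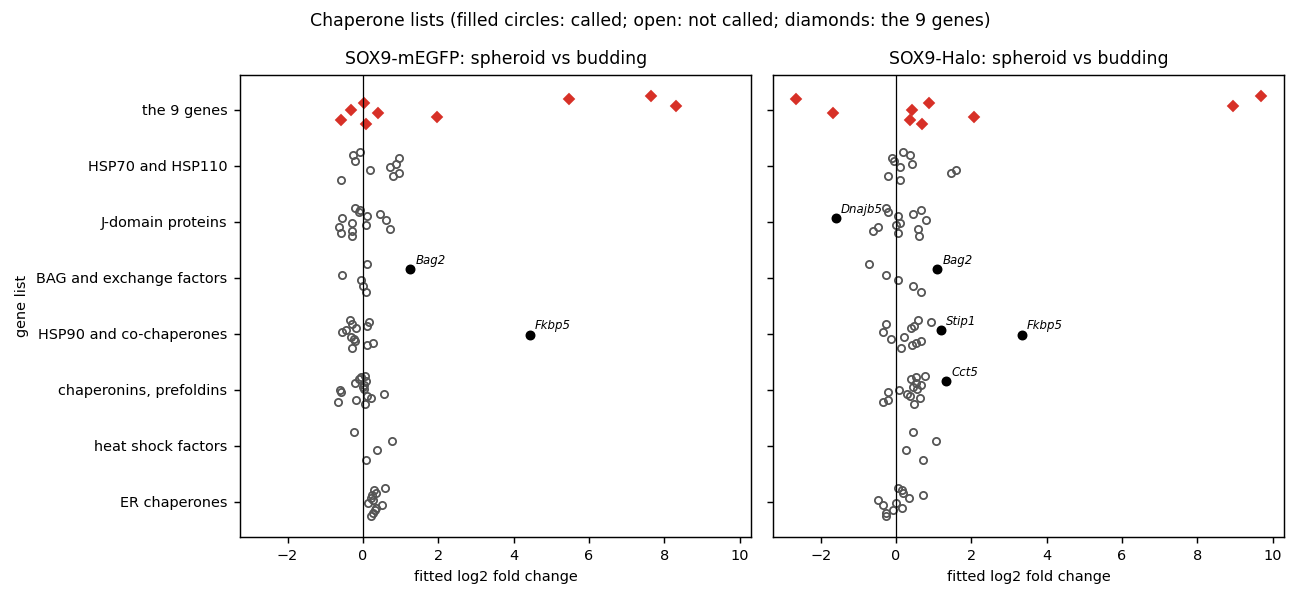
Fitted log2 fold changes (horizontal axis) of the 9 genes (diamonds) and of the tested genes of 7 lists of chaperones and heat shock factors (circles, filled and named where called) for spheroids against budding organoids in the SOX9-mEGFP line (left) and in the SOX9-Halo line (right). Outside the 9 genes, Fkbp5 lies farthest to the right in both panels (4.43 and 3.34), and most circles stay within 1 of 0.

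In SOX9-Halo spheroids against Halo-NLS, 7 of the 76 genes were called higher, against 13.6% of genes tested, and 2 lower, against 15.3%. The higher ones were Fkbp5, Hsf2, Ppid, Bag2, Dnajc21, Canx and Cct5, of which Hsf2, Ppid, Dnajc21, Canx and Cct5 were named after their values were seen. Hsf2 is a heat shock factor and not a chaperone. At an unadjusted p under 0.05 there were 30 higher and 12 lower, with no share of all genes at that limit beside them. The median log2 fold change of the 76 was 0.33, against -0.01 for all genes tested. The counts of 7 and 2 called genes depended on the Halo-NLS libraries and on the scaling: without Halo-NLS replicate 1 they were 20 higher and 5 lower, without Halo-NLS replicate 2 they were 4 and 2, and with library sizes alone 16 and 0. Over all genes the split was 2392 higher and 2682 lower, and 3102 and 2229 with library sizes alone, where the median log2 fold change moved from -0.01 to 0.28. The lower ones were Hsf4 and Dnajb5, also named after their values were seen. Hsf4 is likewise a heat shock factor and not a chaperone. In this list, without SOX9-Halo spheroid replicate 1 no gene was called lower, and without Halo-NLS replicate 3, or without SOX9-Halo spheroid replicate 2 or 3, 1 was.

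The genes most like each of the 9 across the 15 libraries are given as a description, by the Pearson correlation of log2 CPM among the 10987 genes that averaged at least 100 normalized counts. The 15 points come from 5 conditions and are not 15 independent samples. Hspb8 was most like C1qtnf1, a secreted C1q and TNF related protein (r = 0.996), Anxa6, a calcium-dependent membrane-binding annexin (r = 0.993), and Slfn2 (r = 0.991). Cryab was most like Tmem40 (r = 0.993), Anxa6 (r = 0.993) and Rab11fip5, a Rab11 effector (r = 0.992). Hspb8 and Cryab themselves had r = 0.988, and Hspb8 and Bag3 r = 0.071.

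The genes most like Hspb1 were Hpn, a membrane serine protease (r = 0.985), Efemp1, an extracellular matrix fibulin (r = 0.974), and Basp1 (r = 0.967). Their levels were likewise far apart between the spheroid conditions: Hpn averaged 3128 normalized counts in SOX9-mEGFP spheroids and 2.95 in SOX9-Halo spheroids, and Efemp1 2703 and 0.30. Hspa1b was most like Mthfd1l, a mitochondrial enzyme of one-carbon metabolism (r = 0.985), Myo1c, an unconventional myosin (r = 0.973), and Mtcl1 (r = 0.972), whereas Hspa1a was most like B4galnt3 (r = 0.930), Spaca4 (r = 0.929) and Fam83e (r = 0.925), all lowest in SOX9-Halo spheroids. Bag3 was most like Jup, the junction protein plakoglobin (r = 0.963), Dnajb12 (r = 0.956) and Med15 (r = 0.945). Hspb6 was nearest to Rfng (r = 0.936), Ccdc97 (r = 0.932) and Ctdnep1 (r = 0.931), Hsph1 to Ttc27 (r = 0.929), Firrm (r = 0.921) and Ddx18 (r = 0.917), and Dnajb1 to Polr2c (r = 0.947), Uap1l1 (r = 0.942) and Ntpcr (r = 0.934).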

How the data were processed

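RNA of 15 libraries (5 conditions, 3 biological replicates each) had been sequenced as 150-base read pairs. The authors trimmed reads with cutadapt 4.5, aligned them with STAR to GRCm39 (mm39), kept unique alignments and counted reads per gene without strand with HTSeq 2.0.2, and the deposited values used here are these raw counts. Deposited tables of fold changes and p-values from the authors' own comparisons were not used.

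Counts were fitted in edgeR 4.0.16 (R 4.3.3) with 1 coefficient per condition over all 15 libraries, TMM scaling, filterByExpr and Benjamini-Hochberg adjustment over the 17560 genes kept. Calls needed a 2-fold change, an adjusted p no higher than 0.01 and at least 10 normalized counts on average. The 9 genes and the lists were chosen with earlier results of these data known, so the 9 were tested only between conditions outside the comparison that chose them. Named beside them were Hspb2, Hspa8, Hsp90aa1, Hsp90ab1, Hsf1 and Sox9, up to 2 called genes per list and direction in SOX9-mEGFP spheroids against budding organoids (averaging at least 100 normalized counts), and the 3 genes most like each of the 9. The p-values measure the spread between 3 cultures of a line. The code was tested on simulated data.

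Alternatives were other scalings, no filter, DESeq2 1.42.0, only the libraries compared, each replicate left out, and the replicate number as a block. Same-numbered libraries of SOX9-Halo spheroids and budding organoids deviated together over 11050 genes (r = 0.40, 0.23 and 0.34), so the numbers were taken to pair these. The mean of -0.17 between numbers adds nothing to this, because deviations from the mean of a condition sum to 0. Lengths are of Ensembl canonical transcripts (GENCODE M39), repeated stretches were found with BLAST+, and promoters came from RefSeq (GRCm38.p6). Intervals cover counting error only. The immune marker list is not reported in full here.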

Additional observations from a re-analysis of the deposited data

Results flagged for a closer look

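Hspb1 was flagged because its libraries moved in opposite directions in the 2 SOX9 lines. All 3 SOX9-mEGFP spheroid libraries (133.2 to 266.7 normalized counts) lay above the budding organoids of their line (2.4 to 5.5), and all 3 SOX9-Halo spheroid libraries (0 to 0.9) lay below theirs (1.9 to 3.9). The log2 fold changes differed by 8.12 between the lines, and this difference was not tested. The SOX9-Halo side rests on 1 read in spheroids and 9 in budding organoids, with a counting interval of 1.14 to 359 for their ratio of 8.19.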

How the results depend on the processing

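Of 228 values under the alternatives, 207 kept their direction and their side of the threshold. The calls of Hspb8, Cryab, Hspb1 and Hspa1b in SOX9-mEGFP spheroids against budding organoids held under all 12 alternatives, with highest adjusted p-values of 7.7e-06, 1.7e-05, 4.2e-05 and 0.00085, and none of the 9 genes was called between the budding lines under any of the 12. These alternatives reuse the same libraries and are not independent support. Hspb8, Cryab and Hspb1 were in the main test only through spheroid libraries in which they were high. With replicates left out in turn, the log2 fold change of Cryab ranged from 7.78 to 9.58, that of Hspb6 ranged from -0.25 to 0.17 and that of Dnajb1 from -0.032 to 0.099, the last 2 never called. The other chaperone genes called higher in that comparison ranged from 1 to 2 in the same way. For SOX9-Halo spheroids against Halo-NLS, the other chaperone genes called higher numbered 16 with library sizes alone, 16 with no low-count filter, 3 with only the libraries compared, 11 with the replicate block, and 4 to 20 with replicates left out. Those called lower numbered 0 with library sizes alone, 0 with no filter, 1 with only the libraries compared, and 0 to 5 with replicates left out. The cause was not tested. The replicate block moved no other count by more than 1.5 times and gave 4 calls higher among the 9 genes and, for SOX9-Halo spheroids against budding organoids, 5 higher and 1 lower among the other chaperone genes. Outside that comparison the numbers were not taken to pair libraries, and 3 of 6 libraries correlated best with their own number in each of the other 3 comparisons. Between the budding lines the same-numbered libraries had r = 0.04, 0.36 and 0.74, so numbers 2 and 3 deviated together there as well. Between the budding lines, 51 higher and 29 lower calls over all genes became 17 and 2 with only the libraries compared, 116 and 164 with no filter, 94 and 106 with DESeq2, and 36 to 59 higher and 8 to 42 lower with replicates left out. Depth limits Hspb1, Hspb2, Hspb8 and Cryab outside spheroids, where a condition held at most 14 reads of each.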

Other observations

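Immediate early genes respond within minutes to stress, handling or growth factor signals. Of the 9 listed, 3 were called higher in SOX9-mEGFP spheroids than in budding organoids and 0 lower, against 8.55% and 7.88% of all genes tested. At an unadjusted p under 0.05 there were 7 higher and 0 lower, with no share of all genes at that limit beside them. Egr1 went from 926.9, 856.7 and 535.7 to 2805, 3892 and 8954 normalized counts (log2 fold change 2.76 ± 0.62 (SE), edgeR adjusted p = 0.0031), Ier3 rose by 2.36 ± 0.42 on the log2 scale (SE, edgeR adjusted p = 0.00051) and Fos by 2.29 ± 0.33 (SE, edgeR adjusted p = 8.2e-05). In the SOX9-Halo line 3 were called higher in spheroids and 0 lower, against 10.5% and 14.7%. These were Ier3, Fos and Junb, of which Fos and Junb were named after their values were seen, and Egr1 was not (0.10 ± 0.58 (SE), edgeR adjusted p = 0.91). Whether these genes have a part in the levels of the 9 genes was not tested.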
